A study of Homo sapiens with 36 samples.

Results

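A set of 9 genes of inflammatory signalling was followed across a dose series of a MEK inhibitor in LoVo, a long-established line of human colorectal cancer cells. They were the chemokine genes CXCL1, CXCL2, CXCL3, IL8 (now named CXCL8) and CCL20, the chemokine receptor gene CXCR4, the cytokine gene IL33, and NFKBIA and BIRC3 as readouts of NF-kB activity. They were taken by name as 9 of the 20802 genes in the count table. IL33, CXCL1 and CXCR4 had been chosen by their lower counts after treatment in these same libraries, so their values are given as a description and without a test. CXCL2, CXCL3, IL8, NFKBIA and BIRC3 were tested across all doses. CCL20 did not pass the filter on low counts and is given by its counts.

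Chemokines are small secreted proteins that direct the movement of cells carrying the matching receptors. CXCL1, CXCL2, CXCL3 and IL8 act through CXCR1 and CXCR2 and draw neutrophils, CCL20 acts through CCR6, and CXCR4 is the receptor for CXCL12. IL33 is a nuclear cytokine of the IL-1 family that is released from damaged epithelium and binds the receptor encoded by IL1RL1. NF-kB is held in the cytoplasm by IkB-alpha, the product of NFKBIA, which is itself switched on by NF-kB, and BIRC3 encodes the ubiquitin ligase cIAP2, another known NF-kB target.

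The cells were grown in F-12K medium with 10% serum and kept for 24 hours with the inhibitor at 10 doses (0.03, 0.1, 0.3, 1, 3, 10, 30, 100, 300 and 1000 nM, 3 libraries each) or with its solvent DMSO (6 libraries, 3 on chip 1 and 3 on chip 2). MEK is the kinase that activates ERK, and the inhibitor is identified only as a numbered compound of a medicinal chemistry paper. All libraries came from this cell line alone, at a single time point, and the chip is named only for the DMSO libraries. The samples are listed as DMSO of chip 1 and 0.03 to 3 nM, then DMSO of chip 2 and 10 to 1000 nM. Whether the doses were split over the chips in that way is not labelled, so dose and chip may go together. The labels call the samples biological replicates but do not tell whether each came from its own culture. A p-value here therefore weighs a difference only against the spread of these samples, which may in part be technical. In bulk RNA of this kind, fewer cells that express a gene and less RNA per cell cannot be told apart.

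Depth ran from 2972186 to 4751839 counts per library, with a median of 3952427. Levels are counts scaled by TMM library sizes (CPM), and they are compared within a gene and not between genes, since each gene is read by its own amplicon. Values at a dose are means ± SD of 3 libraries, and those in DMSO are means ± SD of the 6 libraries of both chips. The ERK target DUSP6 averaged 1.89 ± 0.468 CPM at 1000 nM and 64.2 ± 4.15 CPM in DMSO, and all 10 listed genes of ERK output fell at 1000 nM, beside 20.7% of all tested genes, with a median log2 fold change of -3.36. All 12 listed markers of colorectal epithelium passed the filter, and at 1000 nM 5 of them rose, 4 fell and 3 were not called, beside 21.2% of all genes called higher and 20.7% called lower. Among them the log2 fold change was 2.29 for CDX1, 1.04 for CDX2 and -1.54 for CEACAM5. CDX1 rests on few reads, with 35 counts over the libraries at 1000 nM and 13 over those in DMSO. It could pass the filter by its reads at some doses, so nothing is read from its place among the 5 that rose. EPCAM, at 500.0 CPM at 1000 nM and 513 CPM in DMSO, was not called. Replicate 1 at 1 nM, replicate 1 at 1000 nM and replicate 2 at 0.1 nM, called the 3 libraries that stood apart, lay farther from their group means than most libraries, by a median of 0.190, 0.177 and 0.152 on the log2 scale over all tested genes. Replicate 3 at 1000 nM, at 0.159, was as far out and is not one of the 3. Without it the log2 fold change at 1000 nM was 0.29 for CXCL2, 0.13 for CXCL3, -0.50 for IL8, 1.04 for NFKBIA, 0.88 for BIRC3, -0.71 for CXCL1 and -3.08 for CXCR4.

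CXCL1, CXCL2, CXCL3, IL8 and NFKBIA share a sequence element upstream of their start sites, which is shown here as a description. The part of this element in their dose patterns was not tested. The sequences are those of RefSeq on GRCh38.p14, read 5′ to 3′ on the strand of the gene and ending at the base before the start site. Capitals mark matches to the kappaB consensus, the site that NF-kB binds, and to the letters GGAATTTCC, on either strand. In CXCL1, CXCL2 and CXCL3 the capitals hold 2 overlapping matches to the consensus.
CXCL1 (chr4:73869283-73869392, + strand): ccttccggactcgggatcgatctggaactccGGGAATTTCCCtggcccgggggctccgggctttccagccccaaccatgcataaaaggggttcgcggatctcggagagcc
CXCL2 (chr4:74099196-74099305, - strand): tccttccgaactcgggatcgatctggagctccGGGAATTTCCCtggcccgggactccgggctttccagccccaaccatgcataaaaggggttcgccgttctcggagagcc
CXCL3 (chr4:74038690-74038799, - strand): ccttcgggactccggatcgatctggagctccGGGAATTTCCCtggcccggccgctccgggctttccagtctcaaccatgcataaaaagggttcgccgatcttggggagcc
IL8 (chr4:73740419-73740568, + strand): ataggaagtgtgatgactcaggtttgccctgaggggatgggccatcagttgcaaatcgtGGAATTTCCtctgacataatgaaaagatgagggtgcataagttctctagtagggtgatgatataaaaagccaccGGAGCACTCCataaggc
NFKBIA (chr14:35404750-35404859, - strand): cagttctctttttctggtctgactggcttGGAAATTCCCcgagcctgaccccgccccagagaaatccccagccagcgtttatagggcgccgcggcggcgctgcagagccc

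The letters GGAATTTCC, or their reverse complement, began at position -78 from the start site in CXCL1 and CXCL3, -77 in CXCL2, -91 in IL8 and -81 in NFKBIA, and were found in 0.413% of 35116 promoters of 250 bases. The kappaB consensus was found in 12.3% of the same promoters, among them those of CCL20, with 1 match, and BIRC3, with 2. Neither motif was found in the windows of the 3 RefSeq starts of CXCR4 or the 2 of IL33. The letters TGANTCA, a site of AP-1 factors, were found in IL8 alone among these genes, as TGACTCA at position -137, and in 6.57% of all promoters. The motifs were chosen with these sequences in view, and a match is a description of letters.

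The 110 bases before the start sites, as printed above, were identical between CXCL1 and CXCL2 at 93.7% of aligned positions. They were identical at 90.0% between CXCL1 and CXCL3 and at 88.3% between CXCL2 and CXCL3. Their transcripts are also close copies, with unbroken identical stretches of up to 77 bases between CXCL1 and CXCL2, 55 between CXCL1 and CXCL3 and 97 between CXCL2 and CXCL3, against 10 to 18 between any of them and IL8. Reads of an amplicon inside such a stretch could be counted for either copy, so the separate values of CXCL1, CXCL2 and CXCL3 are uncertain in that respect.

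Each dose was tested by edgeR's quasi-likelihood test against the DMSO libraries of each chip, and the larger p was kept. A gene was called when this p, Benjamini-Hochberg adjusted over all 12102 tested genes, was below 0.05. The fold changes against both chips also had to be of the same sign. At 0.03, 0.1 and 0.3 nM, 0 of the 5 tested genes were called, and the share of all genes called was 0% at each of these doses. At those doses 42, 299 and 330 genes had an unadjusted p below 0.05 in edgeR, and DESeq2 also called 0. At 1 nM, 0 of 5 were called, beside 7.97% of all genes. At 3 nM, NFKBIA and CXCL3 were called, 2 of 5, beside 13.3% of all genes. NFKBIA alone was called at 10 nM (26.8% of all genes called), at 30 nM (36% of all genes) and at 300 nM (45.1% of all genes). NFKBIA and BIRC3 were called at 100 nM, 2 of 5, beside 37.2% of all genes, and again at 1000 nM, 2 of 5, beside 41.8% of all genes. CXCL2 and IL8 were called at 0 of 10 doses.

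**Figure D1:**
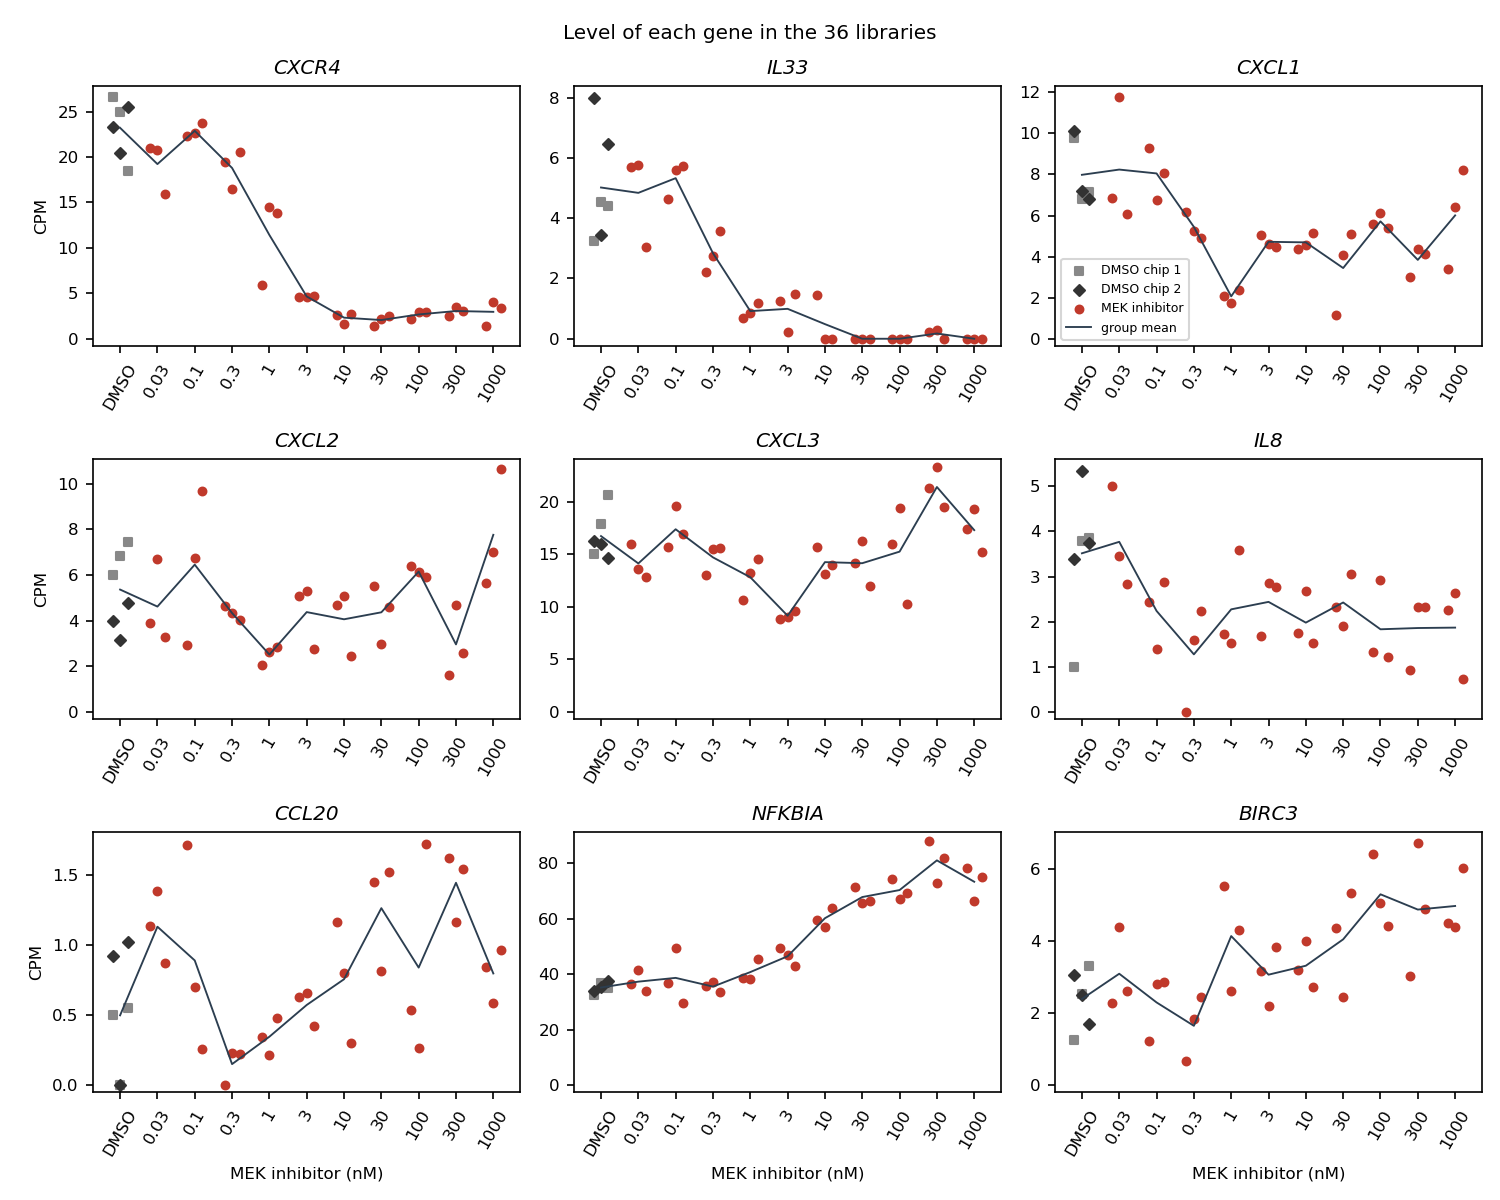
Levels in CPM (vertical axes, linear from 0) of the 9 genes in all 36 libraries, with DMSO at the left and doses in nM rising to the right. Squares and diamonds are DMSO libraries of chip 1 and chip 2, circles are treated libraries, and lines join group means. CXCR4 and IL33 drop between 0.3 and 10 nM, CXCL1 is lowest at 1 nM, and NFKBIA climbs to 81.1 CPM at 300 nM.

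CXCL1 had its lowest level at a middle dose. Means over libraries were 7.98 CPM in DMSO and 8.24, 8.05, 5.45, 2.06, 4.72, 4.69, 3.44, 5.71, 3.84 and 6.01 CPM from 0.03 to 1000 nM. Its libraries held 2.07, 1.74 and 2.39 CPM at 1 nM, against 6.81 to 10.1 CPM in DMSO with a median of 7.18. That is 2.06 ± 0.325 CPM at 1 nM and 7.98 ± 1.54 CPM in DMSO, or 25.9% of the DMSO level. Every library from 0.3 to 300 nM lay below every DMSO library, while those at 1000 nM, with 3.38, 6.44 and 8.20 CPM, overlapped with DMSO. The log2 fold change was -1.95 at 1 nM (SE 0.361) and -0.40 at 1000 nM (SE 0.299). Without replicate 1 at 1000 nM, which held the lowest of these 3 values, and the other 2 libraries that stood apart, it was -0.12 at 1000 nM. These values rest on few reads, with 6, 8 and 10 counts at 1 nM and 20 to 39 counts in DMSO.

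CXCL2, the closest copy of CXCL1 by its upstream sequence, also had its lowest mean at 1 nM. Its libraries held 2.07, 2.60 and 2.86 CPM at 1 nM, all below the DMSO libraries. In DMSO it stood at 6.01, 6.81 and 7.43 CPM on chip 1 and at 3.99, 3.14 and 4.77 CPM on chip 2, without overlap between the chips. The log2 difference of chip 2 over chip 1 was -0.77 (SE 0.361), which did not pass the test over all genes, with an unadjusted p of 0.0394 and an adjusted p of 1.00 by edgeR's quasi-likelihood test; 0% of all genes differed between the chips. At 1 nM the log2 fold change over DMSO was -1.0 (SE 0.428, adjusted p 0.479), the adjusted value of the larger p of both chips. At 1000 nM it averaged 7.75 ± 2.57 CPM, with libraries at 5.63, 7.02 and 10.6, against 5.36 ± 1.67 CPM in DMSO. The log2 fold change of 0.60 (SE 0.355) had an adjusted p of 0.643 by the same test. Against the DMSO libraries of chip 2 alone it was 0.99 with an adjusted p of 0.0189, so this call depends on which DMSO libraries are used. The highest library, replicate 3 at 1000 nM, was among those farthest from their group, and without it the log2 fold change of CXCL2 was 0.29 (adjusted p 0.895).

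Between doses a factor of 10 apart, 2 differences were called among the 5 tested genes. CXCL2 fell at 1 nM relative to 0.1 nM, a step at which 15% of all genes were called and 6.87% were called lower. Its libraries held 2.07, 2.60 and 2.86 CPM at 1 nM, against 2.94, 6.76 and 9.65 CPM at 0.1 nM. The log2 fold change was -1.32 (SE 0.375, adjusted p 0.0133, edgeR). The groups did not overlap, but the libraries at 0.1 nM were spread widely. Without replicate 3 at 0.1 nM the log2 fold change was -0.93 with an adjusted p of 0.133, and without the 3 libraries that stood apart it was -1.18 with an adjusted p of 0.0874, so the call was lost in both cases.

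CXCL3, the third of these close copies, was called at 1 of 10 doses. Its libraries held 8.86, 9.02 and 9.59 CPM at 3 nM, against 14.6 to 20.6 CPM in DMSO. It fell to 9.16 ± 0.383 CPM at 3 nM, against 16.7 ± 2.22 CPM in DMSO, with a log2 fold change of -0.86 (SE 0.20, adjusted p 0.00475 by edgeR's quasi-likelihood test). The 3 libraries at this dose were close together and did not overlap with DMSO. At 10 nM it stood at 14.3 CPM, at 300 nM at 21.4 CPM and at 1000 nM at 17.3 ± 2.06 CPM. The log2 fold change was 0.36 at 300 nM (adjusted p 0.230) and 0.05 at 1000 nM (SE 0.189, adjusted p 0.898), neither of them called. That at 1000 nM changed sign with the DMSO libraries of chip 1 alone, to -0.05.

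IL8, which encodes a major human neutrophil chemokine, was at the edge of detection. Its counts were 8, 9 and 3 at 1000 nM, against 4, 15 and 14 in DMSO on chip 1 and 11, 17 and 11 on chip 2. These libraries overlapped. It averaged 1.87 ± 1.01 CPM at 1000 nM and 3.52 ± 1.41 CPM in DMSO, with a log2 fold change of -0.92 (SE 0.528, adjusted p 0.363 by edgeR's quasi-likelihood test). From 0.1 to 1000 nM all 9 log2 fold changes were negative, between -1.42 and -0.49, and none was called. These 9 values share the same DMSO libraries. With DMSO libraries of chip 2 alone, 1 dose was called. Without replicate 3 at 1000 nM, the lowest of its libraries, the log2 fold change of IL8 at that dose was -0.50.

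CCL20, which attracts cells that carry CCR6, was listed with at most 7 counts in any library. It had 9 counts over the 3 libraries at 1000 nM and 10 counts over the 6 DMSO libraries, a ratio of 1.70 per scaled library size with an exact 95% interval of 0.610 to 4.65 that covers counting error only. The ratio was 2.66 at 30 nM (1.10 to 6.68, from 14 counts) and 3.07 at 300 nM (1.33 to 7.50, from 17 counts). At 300 nM its libraries held 7, 4 and 6 counts, against 2, 0 and 2 counts in DMSO on chip 1 and 3, 0 and 3 on chip 2. When the filter was left out, edgeR called CCL20 at 0 of 10 doses, with an adjusted p of 0.324 at 300 nM.

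**Figure D2:**
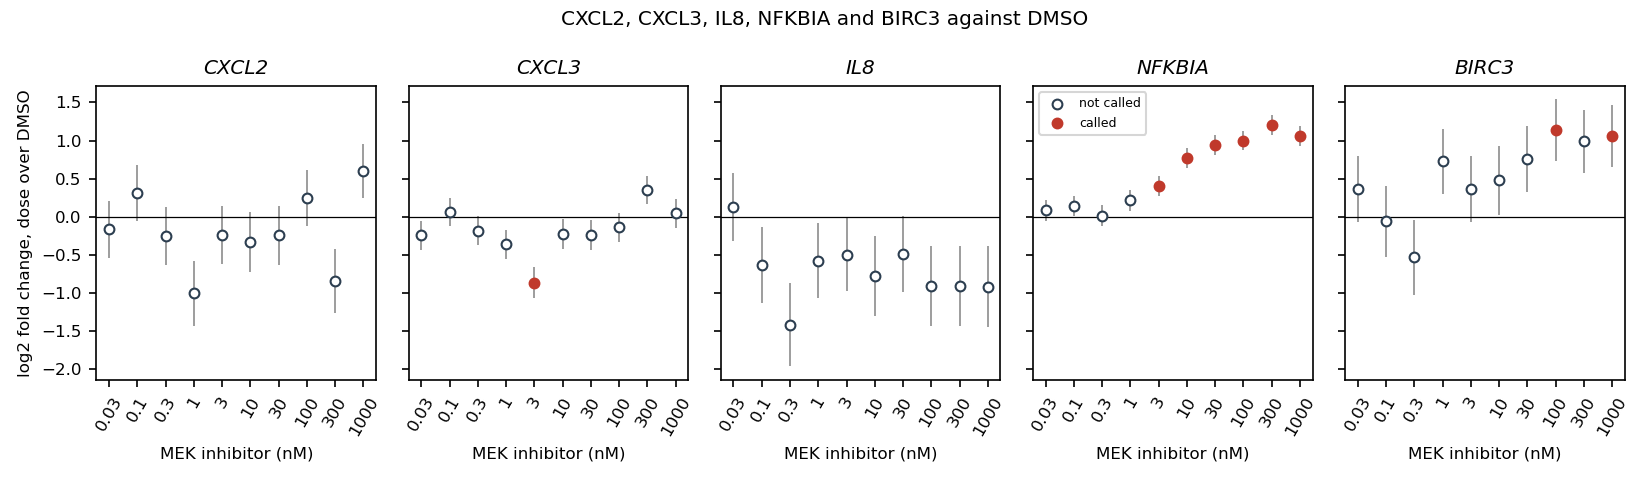
Log2 fold change of each dose over the mean of both DMSO groups (vertical axis) against dose in nM (horizontal axis) for CXCL2, CXCL3, IL8, NFKBIA and BIRC3. Bars are 1 standard error, and filled circles are differences called by edgeR's quasi-likelihood test against both chips. NFKBIA is called at 6 doses, BIRC3 at 2, CXCL3 at 1, and CXCL2 and IL8 at 0.

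The receptor gene CXCR4 was lower at every dose from 1 nM upward. Mean levels were 23.2 CPM in DMSO and 19.2, 22.9, 18.8, 11.4, 4.65, 2.32, 2.06, 2.67, 3.05 and 2.96 CPM from 0.03 to 1000 nM. Its libraries held 18.4 to 26.6 CPM in DMSO, with a median of 24.1, and 5.86, 14.5 and 13.8 CPM at 1 nM, 4.64, 4.62 and 4.69 CPM at 3 nM, and 1.41, 4.10 and 3.38 CPM at 1000 nM. No library from 1 nM upward overlapped with DMSO. The lowest library at 1 nM was replicate 1, which stood apart.

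At 1000 nM CXCR4 averaged 2.96 ± 1.39 CPM, against 23.2 ± 3.18 CPM in DMSO, a log2 fold change of -2.95 (SE 0.270). The log2 fold change was -0.97 at 1 nM, -2.31 at 3 nM and -3.32 at 10 nM, and its lowest value was -3.46 at 30 nM. Without the 3 libraries that stood apart it was -0.71 at 1 nM and -2.64 at 1000 nM. The order of the levels ends at 10 nM: the libraries from 10 to 1000 nM spanned 1.41 to 4.10 CPM and overlapped between neighbouring doses, while those at 3 nM lay above all of them.

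IL33 went out of detection over the same range. In DMSO its counts were 13, 18 and 16 on chip 1 and 26, 11 and 19 on chip 2. They were 25, 25 and 14 at 0.03 nM, 19, 24 and 22 at 0.1 nM, 10, 12 and 16 at 0.3 nM, 2, 4 and 5 at 1 nM, 6, 1 and 7 at 3 nM, and 5, 0 and 0 at 10 nM. It was listed at 0 in all libraries at 30, 100 and 1000 nM, and with 2 counts in all at 300 nM.

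The ratio of IL33 to its DMSO level per scaled library size was 0.578 at 0.3 nM, 0.191 at 1 nM and 0.0973 at 10 nM. These ratios, and the bounds that follow, are a description of pooled counts and leave out the spread between libraries. At 1000 nM, 0 counts against 103 over the DMSO libraries made it at least 18.2-fold lower, taking 3 counts over the group as the most that a count of 0 allows. The bound was 18.1-fold at 30 nM and 18.9-fold at 100 nM. From 1 nM upward no library overlapped with DMSO, and at 0.3 nM 1 of them, at 3.57 CPM, did. IL1RL1, the gene of its receptor, had 1 count in all 36 libraries together.

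NFKBIA moved the other way. Mean levels were 35.2 CPM in DMSO and 37.3, 38.7, 35.5, 40.8, 46.5, 60.2, 67.9, 70.4, 81.1 and 73.4 CPM from 0.03 to 1000 nM. Its libraries held 78.5, 66.4 and 75.3 CPM at 1000 nM, against 32.6, 36.8 and 34.9 CPM in DMSO on chip 1 and 34.1, 35.5 and 37.5 CPM on chip 2. Every library from 1 nM upward was above every DMSO library. At 0.1 nM replicate 2, which stood apart, held 49.6 CPM beside 36.7 and 29.7 CPM in the others.

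NFKBIA rose to 73.4 ± 6.27 CPM at 1000 nM, against 35.2 ± 1.79 CPM in DMSO, with a log2 fold change of 1.06 (SE 0.129, adjusted p 2.88e-09 by edgeR's quasi-likelihood test). From 10 nM upward it was called at every dose, with log2 fold changes of 0.77 (10 nM), 0.95 (30 nM), 1.00 (100 nM) and 1.21 (300 nM). At 3 nM it was 0.40 (SE 0.131, adjusted p 0.0414), a call that was lost when any of 8 of the 9 libraries involved was left out, all but replicate 3 at 3 nM, with an adjusted p of 0.0558 to 0.168. Between doses it rose at 10 nM relative to 1 nM, with 59.7, 57.2 and 63.8 CPM at 10 nM against 38.6, 38.4 and 45.3 CPM at 1 nM. That step gave 0.56 on the log2 scale (SE 0.126, adjusted p 0.00129), where 15.4% of all genes were called and 7.06% were called higher. Neither 100 nM over 10 nM, where 5.14% of all genes were called, nor 1000 nM over 100 nM, where 0.00826% were called, was called for any of the 5 genes.

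BIRC3 had its highest means from 100 to 1000 nM, on few reads, without a steady rise before them. Mean levels were 2.39 CPM in DMSO and 3.09, 2.30, 1.65, 4.14, 3.07, 3.32, 4.05, 5.30, 4.87 and 4.97 CPM from 0.03 to 1000 nM. At every dose but 100 and 1000 nM its libraries overlapped with DMSO. Its libraries held 6.41, 5.07 and 4.42 CPM at 100 nM and 4.50, 4.39 and 6.03 CPM at 1000 nM, against 1.25 to 3.30 CPM in DMSO with a median of 2.52. Neither dose overlapped with DMSO. It rose to 5.30 ± 1.01 CPM at 100 nM, against 2.39 ± 0.786 CPM in DMSO, with a log2 fold change of 1.13 (SE 0.407, adjusted p 0.0284, edgeR). At 1000 nM, with 4.97 ± 0.918 CPM, it was 1.06 (SE 0.412, adjusted p 0.0406), and at 300 nM it was 0.99 (SE 0.414), which missed the threshold with an adjusted p of 0.0549.

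These calls of BIRC3 were close to the threshold. The call at 1000 nM was lost without replicate 1 or 3 at 1000 nM, and without DMSO replicate 1 of chip 1 or replicate 2 or 3 of chip 2, with adjusted p-values of 0.0519 to 0.156. That at 100 nM was lost without replicate 1 at 100 nM and without the same 3 DMSO libraries, with adjusted p-values of 0.0681 to 0.122. DESeq2 gave an adjusted p of 0.0576 at 1000 nM.

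**Figure D3:**
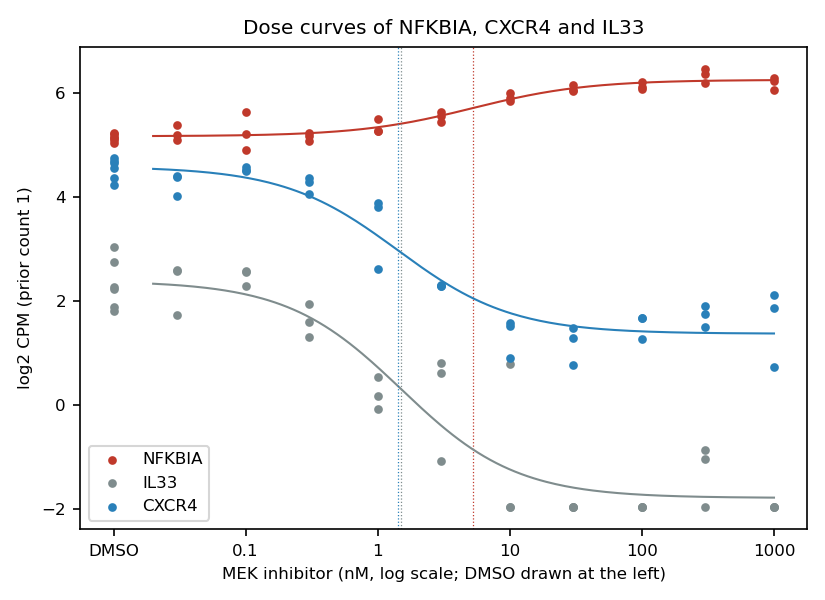
Log2 CPM with a prior count of 1 (vertical axis) against dose in nM on a log scale (horizontal axis, DMSO drawn at the left) for NFKBIA, CXCR4 and IL33 in each library. Lines are fitted curves and dotted vertical lines their midpoint doses, at 5.27 nM for NFKBIA, 1.42 nM for CXCR4 and 1.51 nM for IL33. Points of IL33 at the bottom edge are libraries with 0 counts, whose height depends on the prior count.

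A curve with a base, a plateau and a midpoint dose was fitted to log2 CPM over the 36 libraries. The midpoint of CXCR4 was 1.42 nM (1.11 to 1.81 nM within 1 SE), with 0.928 of the variance accounted for, and that of IL33 was 1.51 nM (1.12 to 2.05 nM). The midpoint of NFKBIA was higher, at 5.27 nM (4.08 to 6.79 nM), with 0.923 of the variance accounted for. That of BIRC3, at 6.68 nM, was loosely set, from 2.27 to 19.6 nM. The ERK target DUSP6 had its midpoint at 9.60 nM, with a fitted log2 change of -4.66 beside -3.22 for CXCR4. Midpoints lie at the middle of the log2 change and not of the level, so those of genes with unlike changes are not like for like. By level DUSP6 averaged 36.1 CPM at 1 nM and 21.7 CPM at 3 nM, against 64.2 CPM in DMSO. CXCR4 averaged 11.4 and 4.65 CPM at these doses, against 23.2 CPM in DMSO. Without the 3 libraries that stood apart the midpoints were 1.52 nM for CXCR4, 1.78 nM for IL33 and 4.75 nM for NFKBIA. The differences between midpoints were not tested.

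Over the 12 group means of log2 CPM, CXCR4 and IL33 followed each other with a Pearson correlation of 0.970, and they ran against NFKBIA at -0.936 and -0.940. NFKBIA and BIRC3 correlated at 0.836. CXCL1 and CXCL2 correlated at 0.650, while CXCL3 correlated at 0.266 with CXCL1 and at 0.171 with CXCL2. IL8 correlated at 0.272 or less with each of CXCL1, CXCL2 and CXCL3. The groups share a dose order and each gene's DMSO libraries. CXCR4, IL33 and CXCL1 were chosen for their fall in these same libraries, so their correlations follow in part from that choice. The means of IL33 at 30, 100 and 1000 nM, with 0 counts, were set by the prior count. All these correlations are a description.

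Among the 10410 genes that averaged 5 CPM or more, those most like CXCR4 over the 12 group means were GCNT3, UST and ALDH1L2, with Pearson correlations of 0.994, 0.991 and 0.990. GCNT3 and UST also stood among the first 3 by Spearman's rank correlation. Those most like NFKBIA were DDX60, BMF and NDRG1 at 0.995 each, and those most like IL33 were ALDH1L2, TIMM9 and TPX2, at 0.986 to 0.988. The ranking for IL33 rests in part on the prior count, which set its means at 30, 100 and 1000 nM. BIRC3 was most like C12orf75 at 0.969, CXCL1 most like INTS3 at 0.975, CXCL3 most like CRIM1 at 0.941 and CXCL2 most like ZDHHC17 at 0.907. IL8 had no gene above 0.780, the value of PMS2P1.

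The table has 38 other chemokine ligand genes, of which 6 passed the filter, and 5 of these 6 were called higher at 1000 nM, beside 21.2% of all genes. Nothing is read from this count, since a gene could pass by its reads at a few doses: PPBP and CCL5 stood at 0.234 and 0.866 CPM in DMSO. CXCL14, an epithelial chemokine, averaged 74.0 ± 8.98 CPM at 1000 nM and 16.8 ± 2.04 CPM in DMSO, with a log2 fold change of 2.14 (SE 0.169, adjusted p 4.15e-15, edgeR). It was called from 1 nM upward, with 0.92 at that dose. CCL15, a ligand of CCR1, averaged 9.65 ± 1.67 CPM at 1000 nM and 2.39 ± 0.576 CPM in DMSO, with 2.02 on the log2 scale, and was also called from 1 nM upward.

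CXCL16, which exists as a membrane-bound scavenger receptor and a soluble ligand, rose by 0.53 on the log2 scale (adjusted p 0.00800, edgeR), a call lost without DMSO replicate 2 of chip 1 (adjusted p 0.0638) or replicate 2 at 1000 nM (log2 fold change 0.35, adjusted p 0.160). PPBP, a neutrophil chemokine precursor known from platelets, had 18 counts at 1000 nM and 5 in DMSO and rose by 2.63 on the log2 scale, a call lost without DMSO replicate 1 of chip 2 (adjusted p 0.0558). Without replicate 2 of chip 2 the log2 fold change of PPBP was 4.10. CCL26, a ligand of CCR3, averaged 7.91 CPM at 1000 nM and 3.97 CPM in DMSO (log2 fold change 0.99). CCL5 had a log2 fold change of 1.46 with an adjusted p of 0.109 and was not called.

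The receptors for these ligands were hardly seen. The table has 20 other chemokine receptor genes, of which 0 passed the filter and 10 held 0 counts in all 36 libraries. CXCR1 and CCR6 were among those at 0, and CXCR2 had 3 counts in all libraries together. CXCL12, the ligand of CXCR4, also had 3 counts in all. CXCR3, CCR10, XCL1, CCL3L1, CCL4L1 and MIF were not analysed here.

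Among 5 tested partners of CXCR4 signalling, 2 rose and 1 fell at 1000 nM, where 41.8% of all genes were called, with a median log2 fold change of 0.04 beside 0.01 over all genes. GNAI2, an inhibitory G protein subunit through which CXCR4 signals, rose to 208 ± 36.6 CPM at 1000 nM, against 105 ± 10.5 CPM in DMSO (log2 fold change 0.99, adjusted p 2.14e-09, edgeR). UBB, a ubiquitin gene, rose by 0.38, and GRK6, a kinase that switches off chemokine receptors, had a log2 fold change of -0.48 and fell. Of 7 tested regulators linked to HIF and CXCR4, FOXO3 (0.62) and KLF2 (0.94) rose and FOXO1 (-0.40, adjusted p 0.0357) fell, 3 of 7 beside 41.8% of all genes, with a median of -0.05. The call of FOXO1 was lost without replicate 1 (adjusted p 0.160) or 2 (0.0946) at 1000 nM and without DMSO replicate 1 of chip 1 (0.0529) or chip 2 (0.128).

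Of 4 tested genes of the IL-1 family, 1 rose and 2 fell, beside 21.2% and 20.7% of all genes, with a median of 0.12. IL1R2, a decoy receptor that binds IL-1 without signalling, fell to 4.09 ± 0.661 CPM at 1000 nM, against 29.02 ± 2.21 CPM in DMSO, with a log2 fold change of -2.83 (SE 0.216, adjusted p 1.45e-15, edgeR), and was called from 3 nM upward. IL18, a cytokine that epithelium makes as a precursor, fell, with a log2 fold change of -0.36, and SIGIRR, an inhibitory receptor of the family, rose by 0.61. IL1R1, the signalling receptor, had 0.82 and was not called (adjusted p 0.372).

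Other genes of the NF-kB system moved in both directions. Of 22 tested factors and regulators, 4 rose, 4 fell and 14 were not called at 1000 nM, with a median log2 fold change of -0.17, 8 calls of 22 beside 41.8% of all genes. NFKBIZ, a nuclear IkB protein, rose to 135 ± 15.9 CPM at 1000 nM, against 33.5 ± 4.69 CPM in DMSO, with a log2 fold change of 2.01 (SE 0.151, adjusted p 2.24e-15, edgeR), and was called from 3 nM upward, as NFKBIA was. BIRC2, the neighbour and close relative of BIRC3, rose by 0.70, TNIP1, an inhibitor of NF-kB signalling, by 0.35, and REL, an NF-kB subunit, by 0.67, the last lost without replicate 3 at 1000 nM (0.42, adjusted p 0.103). The genes that fell were BCL3 (-1.35), NFKBIB (-0.56), RELA (-0.50) and TNIP2 (-0.43). Without replicate 1 at 1000 nM, 2 genes of this list were called lower.

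Of 12 tested target genes of NF-kB outside the 9 genes, 3 rose, 3 fell and 6 were not called, 6 of 12 called beside 41.8% of all genes, with a median of 0.13. CFLAR, an inhibitor of caspase-8, rose by 1.13 on the log2 scale, LCN2, an iron-scavenging protein of inflamed epithelium, by 0.88, and PLAU, the urokinase gene, by 1.27. PTGS2, which encodes cyclooxygenase-2, had a log2 fold change of -1.08 and was called lower from 1 nM upward. IER3 (-1.04) and RIPK2 (-0.87) also fell.

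**Figure D4:**
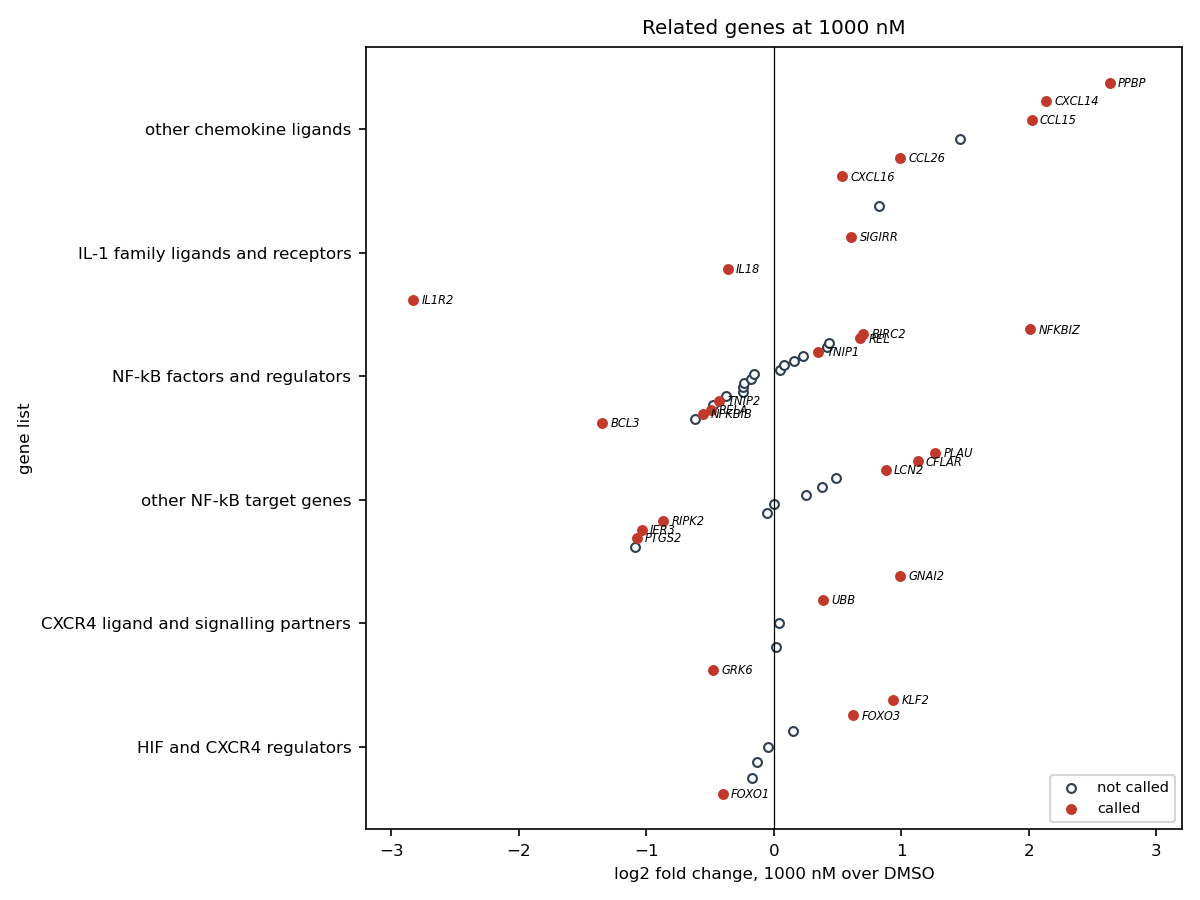
Log2 fold change at 1000 nM over DMSO (horizontal axis) of each tested gene in 6 lists of related genes (vertical axis). Filled, named circles were called by edgeR's quasi-likelihood test and open circles were not. NFKBIZ lies at 2.01, IL1R2 at -2.83, and called genes of the NF-kB lists lie on both sides of 0.

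Markers of other cells that make or receive these signals were examined beside these results. Of 14 leukocyte markers 2 passed the filter: LYZ rose to 71.1 CPM at 1000 nM, against 10.9 CPM in DMSO, and CD68 was not called. Their summed level, with the 12 others, was 78.1 to 97.0 CPM at 1000 nM and 16.5 to 24.2 CPM in DMSO, while CD3E held 0 counts and PTPRC, the defining marker, 1 count in all 36 libraries. Of 10 fibroblast markers 3 passed the filter, COL3A1 with 184 counts at 1000 nM and 26 in DMSO, COL1A1 with 145 and 41, and LUM with 122 and 13. Each was called higher, beside 21.2% of all genes, and nothing is read from that count, since such genes could pass by their reads at high doses. The list's summed level was 42.5 to 43.6 CPM at 1000 nM and 3.30 to 5.01 CPM in DMSO. Of 6 endothelial markers 0 passed, with sums of 0.241 to 1.46 CPM at 1000 nM and 0.341 to 1.75 CPM in DMSO. The part of these markers in the results on chemokines was not tested.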

How the data were processed

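Total RNA, 10 ng from each sample, was copied to cDNA and amplified as Ion AmpliSeq amplicons, with 18 libraries sharing a pool, per the labels' protocols. The deposited values are whole-number counts per gene, not normalized, and the matrix of the series equalled the separate files of all 36 libraries. Genome build hg19 is named in the submitters' processing notes. The software used to align and count is not given in the sources used here. Of 20812 rows, 10 spike-in rows held 0 counts. PCR reads without molecular identifiers are not independent molecules, so intervals and bounds reflect counting error alone.

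The analysis used edgeR 4.0.16 (R 4.3.3): filterByExpr by group kept 12102 genes, libraries were TMM-scaled, and a robust quasi-likelihood model of 12 groups left 24 residual degrees of freedom. Doses were tested against both DMSO groups, and the larger p was adjusted by Benjamini-Hochberg. Fold changes are relative to the average of the DMSO groups and carry the larger standard error. Log2 values of curves and correlations use a prior count of 1. Curves were fitted with scipy 1.17.1 and figures drawn with matplotlib 3.10.9. Sequences came from RefSeq promoters on GRCh38.p14 and transcript comparisons from GENCODE transcripts. No coordinate of hg19 was used.

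The genes, lists, alternatives and the 3 libraries said to stand apart were chosen with earlier results of these data known. The genes named are the 9 genes, up to 4 called genes of each list by adjusted p, up to 3 genes most like each of the 9 genes that passed the filter, and DUSP6. Further list members, markers, chemokine receptors and ligands were named after their values were seen. The procedure was tested on simulated counts. Alternatives were DESeq2 1.42.0, its size factors in edgeR, other filters, other uses of the DMSO libraries, a replicate block and leaving out libraries. The midpoints without the 3 libraries were added after seeing the data.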

Additional observations from a re-analysis of the deposited data

How the results depend on the processing

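Of 1442 values recomputed under alternatives, 1360 kept their direction and side of the threshold or moved little, 3 reversed and 79 changed. The reversals were all of CXCL3 at 1000 nM, whose log2 fold change of 0.05 was -0.05 (-0.0461) with DMSO of chip 1 alone and lay between -0.0440 and 0.13 when libraries were left out. CXCL2 was called at 2 doses with DMSO of chip 1 alone, with the mean of both DMSO groups or with DMSO counts summed over chips, and at 1 dose with chip 2 alone, where its log2 fold change at 1000 nM of 0.99 was called. CXCL3 was called at 2 doses with chip 2 alone or with the mean of both groups, and IL8 at 1 dose with chip 2 alone. BIRC3 was called at 1 dose by DESeq2 and with at least 1 CPM in 3 libraries, where its log2 fold change at 1000 nM was 1.07 (adjusted p 0.0576) and 1.03 (0.0513). Leaving out libraries gave 0 to 3 doses for BIRC3 and 0.88 to 1.20 at 1000 nM. The 2 steps between doses became 1 without the 3 libraries that stood apart, and 1 to 2 when libraries were left out. NF-kB factors called lower numbered 7 with the mean of both DMSO groups and 2 to 4 when libraries were left out, and regulators linked to HIF and CXCR4 called lower 0 to 1. Over all genes, calls at 1 nM numbered 965, and 1652, 1789, 2537 and 1824 with chip 1 alone, chip 2 alone, the mean of both groups and summed DMSO. At 3 nM they numbered 1615, and 3137 and 2525 with the mean and the sum, and at 10 nM 3249, and 4964 with the mean. Without replicate 2 at 0.1 nM, calls at 1 nM over 0.1 nM numbered 887, against 1820, and 922 without the 3 libraries that stood apart. At 100 nM over 10 nM they numbered 622, 1118 without those 3 and 339 to 536 without single libraries, and at 1000 nM over 100 nM 1 to 5 in all settings. The 3 nM call of NFKBIA had an adjusted p of 0.0698 with no filter. Of the genes most like each of CXCL1 and NFKBIA, Spearman's correlation kept 0 of 3. Of those most like each of CXCL2, CXCL3, IL8 and IL33 it kept 1 of 3. The causes were not tested.

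Replicate numbers did not pair the 1000 nM libraries with DMSO: deviations of same-numbered libraries correlated at -0.0745 to 0.0385. Between the DMSO chips they correlated at 0.0955 to 0.152. Between doses the values could be wider and of either sign. For 1000 and 30 nM they were 0.265, -0.102 and 0.522, and for 1000 and 300 nM -0.105, 0.0488 and -0.330, in order of replicate number. With the number as a replicate block, NFKBIA at 1000 nM gave a log2 fold change of 1.06 (adjusted p 6.87e-09) and BIRC3 1.05 (0.0459), and no call of the 5 tested genes changed. Low counts limit IL8, CCL20, IL33 and BIRC3, which had at most 22, 7, 26 and 25 counts in a library.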
